A study of Danio rerio with 10 samples.

Results

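The zebrafish (Danio rerio) egg is stocked with messenger RNA before fertilisation, and 176 transcripts that were abundant in the embryo of 1 cell stood far lower in the embryo of 128 cells. They were chosen from the values themselves: at least 50 RPKM (reads scaled by gene length and by the size of the library) in the 1-cell library, and at most 25% of that level in the 128-cell library. Of 32574 genes in the table, 1651 reached 50 RPKM in the 1-cell library and 197 of these passed the ratio, from which 8 genes of the mitochondrial genome and 13 others were left out by name. Leaving out by name could not reach the 26 members with no symbol. What kind of RNA these are was not checked, so mitochondrial or other RNA that is not messenger RNA may remain among them. The 176 members are thus 10.7% of the abundant genes of the 1-cell embryo. The other 1475 serve below as the comparison, and they still hold the 8 and 13 genes that passed the ratio but were left out by name. Because the 1-cell and 128-cell values chose the members, the difference between these 2 libraries is given as a description and carries no test.

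The study sequenced 10 stages, namely sperm, oocyte, embryos of 1, 4, 16, 64, 128, 256 and 1000 cells, and sphere, a blastula stage after the 1000-cell embryo. Each stage had 1 library of 50-base single reads, with no treatment or mutation named and no strain, age or pooling of embryos given in the labels. The libraries were scaled by the authors to between 37762530 reads (1-cell) and 113972795 reads (4-cell), and between 86.2% (sperm) and 93.8% (4-cell) of these lay in genes. The fewest reads behind any member were 108 at 128-cell and 821 at 1-cell. The fold of a single gene is a ratio of RPKM values, given in most cases with its exact 95% Clopper-Pearson counting interval, which covers counting error and not the spread between embryos. With 1 library per stage there was no replicate check on any difference between 2 stages.

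During the cleavage divisions the zebrafish embryo is nearly silent in transcription, so its proteins are made from maternal RNA. Maternal transcripts are later cleared, first by factors that the egg itself supplied and then by factors made after the embryonic genome is switched on, through shortening of the poly(A) tail and decay. The library kit captures RNA by its poly(A) tail, so loss of a transcript and shortening of its tail cannot be told apart in these values, and in whole embryos fewer cells with a transcript and less of it per cell cannot be told apart either.

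Maternal origin was checked first. In the oocyte library 174 of the 176 members stood at 10 RPKM or more, and the other 2, ENSDARG00000018800 and ENSDARG00000076149, which have no symbol, held 111 and 64.0 RPKM in the 1-cell library and were listed at 0 in the oocyte. The 1-cell level was within 2-fold of the oocyte level for 165 members (93.8%), against 96.1% of the other abundant genes. The summed level of 5 markers of embryonic transcription stood at 0.283 RPKM in 1-cell, 1.94 RPKM in 256-cell, 18.5 RPKM in 1000-cell and 278 RPKM in sphere. These markers were thus near 0 up to 256-cell, and higher at 1000-cell and sphere, where the members were also low. Markers of blood summed to at most 1.92 RPKM in the oocyte and every embryo library. Of 10 follicle and steroidogenic markers, 3 reached 1 RPKM in the oocyte library, led by the member CYP11A1 (ENSDARG00000002347), the mitochondrial enzyme that starts steroid synthesis, at 206 RPKM. Keratins and other epithelial markers summed to 1.05 RPKM in 1-cell and 419 RPKM in oocyte, and whether cells around the egg contributed to oocyte values was not tested.

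The members' levels lay lower from the 4-cell embryo on. The low level at 128-cell is in part set by the rule, which asked for a low value there. Their median was 129.9 RPKM in the oocyte, 131 in 1-cell, 63.9 in 4-cell, 40.9 in 16-cell, 18.7 in 64-cell, 15.2 in 128-cell, 15.5 in 256-cell, 16.1 in 1000-cell and 12.8 in sphere. Expressed for each gene as a share of its own 1-cell level, the median was 51.8% in the 4-cell library for members and 95.3% for the other abundant genes. It was 30.4% for members against 58.4% for the others in 16-cell, 18.2% against 70.2% in 64-cell, 13.4% against 63.4% in 128-cell, 12.8% against 58.3% in 256-cell, 11.9% against 50.4% in 1000-cell and 8.96% against 46.0% in sphere. In the 4-cell library 175 of 176 members were already below their 1-cell level, a value that the rule had used. So were 55.7% of the other abundant genes and 21.6% of all expressed genes. Here and below, expressed genes are the 14431 that reached 1 RPKM in at least 1 embryo library. In the 1-cell library 8479 genes reached 1 RPKM, so many expressed genes had little room to stand lower later. The remaining member was ENSDARG00000091754 with 275 RPKM at 4-cell and 203 RPKM at 1-cell. A course with no step upwards between neighbouring libraries from 1-cell to 128-cell was followed by 113 members (64.2%). It was followed by 7.53% of the other abundant genes and 3.89% of all expressed genes. The ends of this course are the libraries of the rule, so it is a description. All members together made up 8.14% of the RPKM total in the oocyte, 8.61% in 1-cell, 4.89% in 4-cell, 5.86% in 16-cell, 1.73% in 64-cell, 1.43% in 128-cell and 1.11% in sphere. The 16-cell share was 2.99% without ENSDARG00000080337, a gene with no symbol that was listed at 12970 RPKM there, with 265 RPKM at 4-cell and 275 RPKM at 64-cell. Its recovered length was 1683 bases and its sperm level 1529 RPKM, and what kind of RNA it is was not checked.

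**Figure D1:**
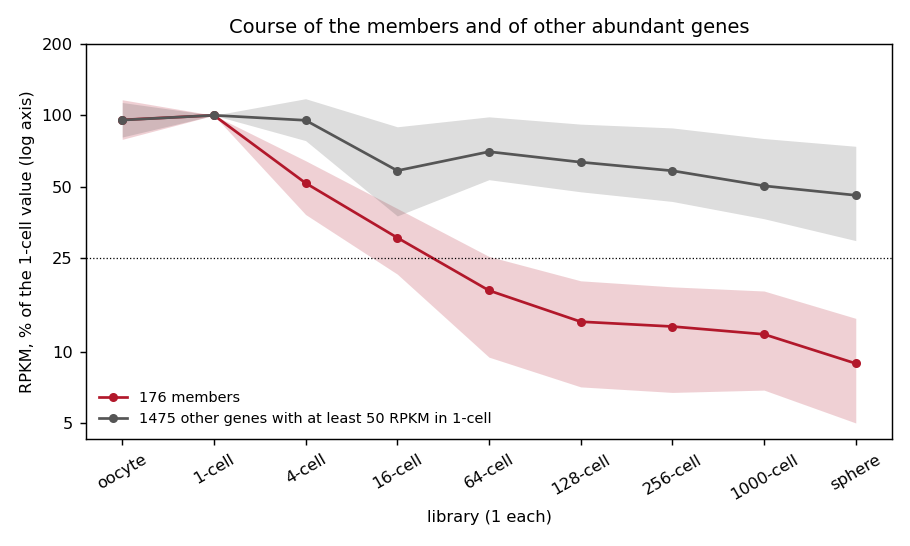
RPKM in each library as a percentage of the 1-cell value, on a log axis, for the 176 members (red) and the 1475 other genes with at least 50 RPKM in 1-cell (grey); lines are medians over genes and bands the middle 50% of genes, with 1 library per stage. The members' median is 51.8% at 4-cell and 13.4% at 128-cell, while that of the other genes is 95.3% at 4-cell and 63.4% at 128-cell; the dotted line marks 25%, the limit that the 128-cell value had to meet.

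The typical member was 7.44-fold lower at 128-cell (median), with 70 members below 6-fold, 67 at 10-fold or more and 16 at 30-fold or more. Among all genes that reached 1 RPKM in one library of the pair or both, 2.43% were at least 4-fold lower at 128-cell on the log2(RPKM + 1) scale. The median gene on that scale was higher at 128-cell by 1.13, and 170 of the members passed this form of the threshold, a count which the choice of members fixes. RPKM is a share of each library, and scaling by the median ratio over genes would shift every 128-cell value by a further -1.68 on the log2 scale against 1-cell, at which 1133 genes would meet the ratio. Among genes with a symbol of their own, those just inside the limit were PHF10 (24.1% of 1-cell), METTL6 (24.3%), sun1a (24.3%), ifi27.4 (24.4%) and cyp3c1 (24.4%). Just outside it, among such genes, stood CYP26A1 (25.1%), RCBTB1 (25.3%), INTS8 (25.4%), CPOX (25.6%) and SASS6 (25.7%).

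Among members with a symbol of their own, the 12 most abundant in 1-cell had roles in several cell compartments. PPT2, a lysosomal thioesterase, held 1633 RPKM in the oocyte, 2473 in 1-cell, 1744 in 4-cell, 800.4 in 16-cell, 569 in 64-cell, 488 in 128-cell, 382 in 256-cell, 357 in 1000-cell and 262 in sphere. It was 5.07-fold lower at 128-cell (5.02 to 5.12) and stood lower in every library than in the one before from 1-cell on. Its relative ppt2a.3 held 583 RPKM in the oocyte, 1004 in 1-cell, 562 in 4-cell, 233 in 16-cell and 111 in 128-cell, and how reads shared by the 2 genes were counted is not given in the sources used here. The oogenesis-related gene org, an egg marker, hardly differed between 1-cell (2292 RPKM) and 4-cell (2269 RPKM), and then held 856 in 16-cell, 404 in 64-cell, 239.7 in 128-cell, 169 in 256-cell, 148 in 1000-cell and 101 in sphere. Its lower levels thus began after the 4-cell stage, while the others of the 12 were already lower at 4-cell. The mitotic kinase gene plk1 held 1371 RPKM in the oocyte, 1621 in 1-cell, 881 in 4-cell, 576 in 16-cell, 379 in 64-cell, 341 in 128-cell, 309 in 256-cell, 274 in 1000-cell and 190.4 in sphere. Although 4.75-fold lower at 128-cell (4.71 to 4.79), plk1 was still among the more abundant members there.

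The surface glycoprotein gene thy1 followed a similar course, with 1566 RPKM in 1-cell, 1173 in 4-cell, 501 in 16-cell, 337 in 128-cell and 139.5 in sphere. The cathepsin S family gene ctss2.1, a lysosomal protease, was higher in the oocyte (2055 RPKM) than in 1-cell (1372), and held 623 in 4-cell, 746 in 16-cell, 286 in 64-cell, 249.9 in 128-cell and 281 in sphere. Its later libraries, up to 338 RPKM at 1000-cell, stayed near the 64-cell level. The stress-induced nuclear protein gene nupr1a kept the smallest share at 4-cell of the 12 highest, with 669.9 RPKM in the oocyte, 606 in 1-cell, 112 in 4-cell, 67.0 in 16-cell, 12.4 in 64-cell, 10.9 in 128-cell, 16.3 in 256-cell, 26.0 in 1000-cell and 33.1 in sphere. From its lowest point at 128-cell it was higher in each later library. Genes for sinup, a nuclear protein known to bind the ubiquitin ligase Siaz in zebrafish, rpain, which carries replication protein A into the nucleus, and SPSB1, a SOCS-box adaptor of ubiquitin ligases, were 8.36-fold (8.16 to 8.57), 14.0-fold (13.6 to 14.4) and 11.6-fold (11.4 to 11.8) lower at 128-cell. Of the other genes among the 12 highest, zgc:56231 stayed between 296 and 223 RPKM from 16-cell to 1000-cell and stood at 47.0 RPKM in sphere. The remaining one, si:ch73-303b9.1, held 88.0 RPKM in 128-cell and 1163 in 1-cell.

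**Figure D2:**
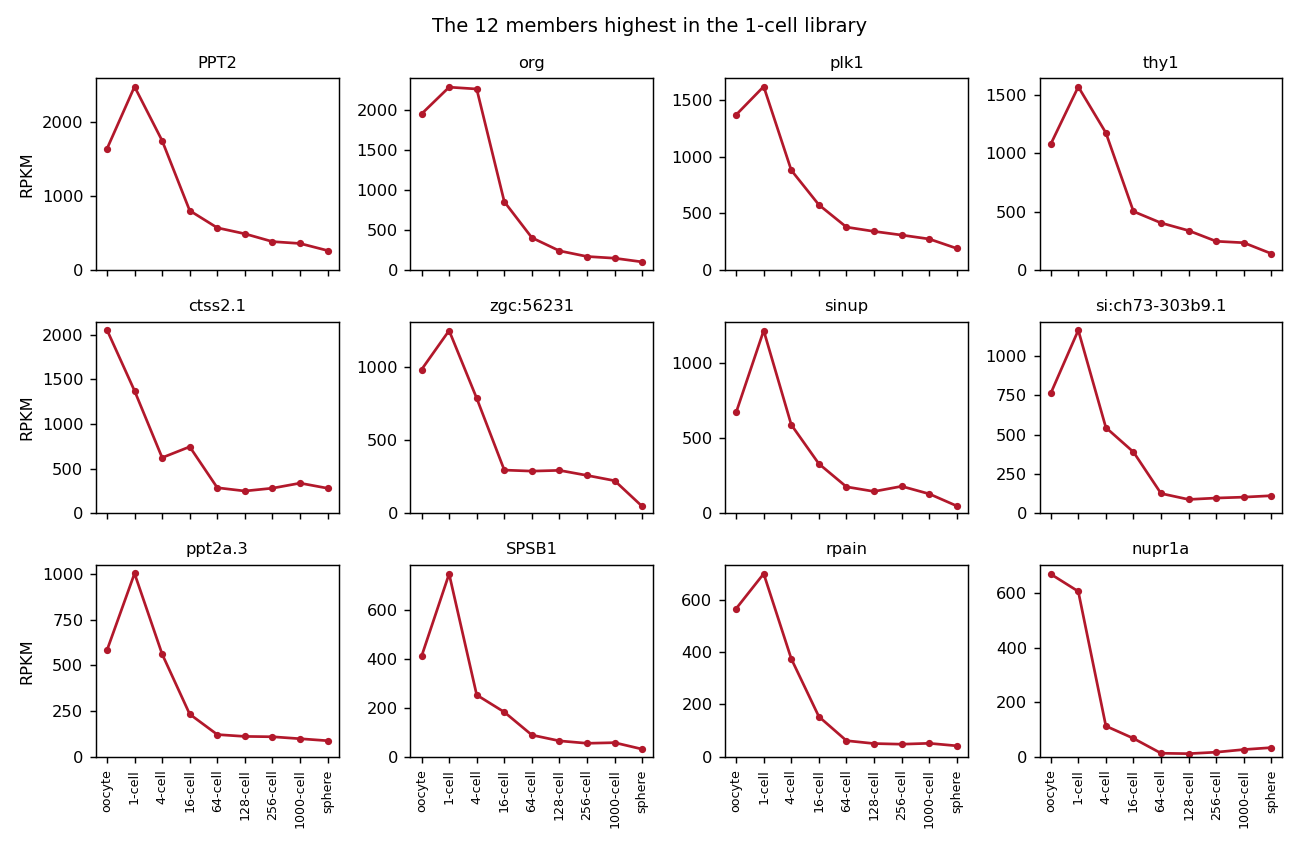
RPKM (linear axes, each from 0) in the 9 libraries from oocyte to sphere for the 12 members with a symbol of their own that were highest in the 1-cell library; each point is 1 library. In all but org the 4-cell point lies clearly under the 1-cell point, and org holds 856 RPKM at 16-cell and 2269 RPKM at 4-cell.

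The 12 members with a symbol of their own that kept the lowest share at 128-cell had no single role in common. TRDMT1, a methyltransferase of transfer RNA, held 64.8 RPKM in the oocyte, 72.1 in 1-cell, 6.59 in 4-cell, 4.25 in 16-cell, 0.636 in 64-cell, 0.518 in 128-cell, 0.630 in 256-cell, 0.595 in 1000-cell and 0.948 in sphere. That made it 139-fold lower at 128-cell (115 to 169.8), with about equal parts of the difference, on a log scale, before and after the 4-cell stage. The gene si:ch211-241j12.3 held 545 RPKM in the oocyte, 316 in 1-cell, 52.4 in 4-cell, 7.98 in 16-cell, 2.44 in 64-cell, 2.44 in 128-cell, 1.64 in 256-cell, 2.35 in 1000-cell and 3.98 in sphere, a difference of 129-fold (123 to 137). DCK, deoxycytidine kinase of the nucleotide salvage pathway, held 90.6 RPKM in the oocyte, 89.1 in 1-cell, 18.8 in 4-cell, 10.0 in 16-cell, 2.09 in 64-cell, 1.24 in 128-cell, 1.54 in 256-cell, 0.987 in 1000-cell and 0.343 in sphere. DCK was 71.8-fold lower at 128-cell (60.3 to 86.1) and lower again in sphere than at any earlier stage. The gene zgc:153345, 76.0-fold lower (72.6 to 79.6), held 426 RPKM in 1-cell, 220.0 in 4-cell, 73.2 in 16-cell, 8.92 in 64-cell, 5.61 in 128-cell and 2.89 in sphere. The rest of the 12 included cdca9, of cell division (55.6-fold, 50.3 to 61.6), nupr1a (55.5-fold, 51.5 to 59.9), the calcium-binding protein gene PEF1 (51.1-fold, 46.1 to 56.7) and the deubiquitinase gene zufsp (44.8-fold, 41.0 to 49.0). They also included zgc:114123 (40.0-fold, 38.3 to 41.9), CSE1L (38.8-fold, 37.0 to 40.8), WSB1, a SOCS-box ubiquitin ligase adaptor (35.8-fold, 33.8 to 37.9), and RNF7 (33.4-fold, 30.8 to 36.3).

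Members differed in when they first stood at or under 25% of the 1-cell level. The first such library was 4-cell for 15 members, 16-cell for 52, 64-cell for 68 and 128-cell for 41. The rule required every member to be there by 128-cell, and the same counts were not taken for other genes, so this timing is a description. Some stood above 25% again in a later library, so that 64 members were at or under it at 16-cell and 127 at 64-cell. The lowest shares at 4-cell among members with a symbol of their own were those of IDH3A, a subunit of the mitochondrial isocitrate dehydrogenase (4.99% of 1-cell at 4-cell), cdca9 (8.77%), TRDMT1 (9.15%), the endothelial lipase gene LIPG (10.6%) and zufsp (14.3%). They were followed by si:ch211-241j12.3 (16.6%), nupr1a (18.5%) and the serine protease gene tmprss4b (18.6%). IDH3A had the most uneven course of these, with 99.2 RPKM in the oocyte, 80.3 in 1-cell, 4.00 in 4-cell, 20.1 in 16-cell, 5.32 in 64-cell, 9.05 in 128-cell, 16.9 in 256-cell, 18.5 in 1000-cell and 22.6 in sphere. Its lowest library was thus 4-cell, and from 64-cell on each library stood higher than the one before.

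At the other end, 8 members with a symbol of their own kept the largest shares of their 1-cell level in the 16-cell library. They were kif2c, a kinesin that takes microtubule ends apart (123%), UBE2S, an E2 enzyme that lengthens ubiquitin chains for the anaphase-promoting complex (92.7%), cd68, a lysosomal glycoprotein (90.8%), and the chromosome-bound kinesin gene KIF4A (79.7%). The others were TRIP13, an ATPase of the spindle checkpoint and of meiosis (78.6%), IDH1, the cytosolic isocitrate dehydrogenase (78.3%), ECT2, which acts in cytokinesis (74.8%), and UQCRQ, a subunit of respiratory complex III (71.9%). This ranking takes in the library that stands apart: the 16-cell value exceeded both the 4-cell and the 64-cell value in 55.7% of all expressed genes, in 27 members (15.3%) and in 15.8% of the other abundant genes. For kif2c the 4-cell value was 25.8 RPKM, the 16-cell value 79.8 RPKM and the 64-cell value 12.8 RPKM, so without the 16-cell library it too was lower at each step up to 64-cell. UBE2S (37.3 RPKM at 4-cell, 90.2 at 16-cell, 23.4 at 64-cell), cd68 (20.4, 60.4 and 9.31 RPKM) and ECT2 (29.1, 59.1 and 10.2 RPKM) had the same pattern. TRIP13 (61.3 RPKM at 4-cell, 53.0 at 16-cell, 13.9 at 64-cell) and IDH1 (67.1, 71.8 and 14.4 RPKM) were instead about as high at 4-cell as at 16-cell.

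Read by role, 31 members belonged to at least 1 of 21 gene lists and 145 to none. The list of spindle, kinetochore and checkpoint genes had 23 genes at 50 RPKM or more in 1-cell, of which 6 were members and 7 more met the ratio but were left out by name. Besides plk1 these were kif11, the motor that pushes spindle poles apart, birc5b, a survivin of the chromosomal passenger complex, cdca9, the spindle pole kinase gene aurka and kif2c. The kif11 values were 349.8 RPKM in the oocyte, 353 in 1-cell, 100.2 in 4-cell, 73.3 in 16-cell, 16.6 in 64-cell, 16.1 in 128-cell, 13.5 in 256-cell, 14.3 in 1000-cell and 26.6 in sphere (21.9-fold lower at 128-cell, 21.3 to 22.5). For birc5b they were 405 RPKM in the oocyte, 451 in 1-cell, 168 in 4-cell, 34.7 in 64-cell, 28.4 in 128-cell and 27.5 in sphere (15.9-fold lower at 128-cell, 15.2 to 16.6). A second survivin gene, BIRC5, was also a member (12.5 RPKM in 128-cell, 411 RPKM in 1-cell) and is named after its values were seen; how reads common to the pair were assigned is not given in the sources used here. The aurka course had its lowest point at 128-cell, with 309 RPKM in 1-cell, 84.8 in 4-cell, 181 in 16-cell, 38.4 in 64-cell, 34.7 in 128-cell, 50.0 in 256-cell, 61.3 in 1000-cell and 80.8 in sphere. The cdca9 values were 310.5 RPKM in 1-cell, 27.2 in 4-cell, 26.8 in 16-cell, 4.53 in 64-cell, 5.58 in 128-cell, 8.48 in 256-cell, 11.5 in 1000-cell and 14.5 in sphere. In the same list cenpn, mad1l1 and TPX2 kept 58.7%, 78.1% and 85.6% of their 1-cell level at 128-cell, so not all abundant genes of the spindle were members.

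Of 14 abundant cyclin, anaphase-promoting complex and M-phase genes, 2 were members. ANAPC13, a small subunit of that complex, held 202 RPKM in 1-cell, 119 in 4-cell, 37.7 in 16-cell, 17.2 in 64-cell, 10.7 in 128-cell and 6.16 in sphere (18.9-fold lower at 128-cell, 17.3 to 20.7). The other was UBE2S (4.39-fold lower, 4.25 to 4.53), while CCNB1 and CCNB2, the mitotic B cyclins, kept 51.3% and 51.5% of their 1-cell level. Among 5 abundant cytokinesis genes the member was ECT2, 8.14-fold lower at 128-cell (7.85 to 8.45), and among 9 abundant kinesins the members were kif11, KIF4A and kif2c. None of 8 abundant condensin and cohesin genes was a member.

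DNA replication supplied 4 members of 15 abundant genes, and 2 more were left out by name. GINS2, a subunit of the replicative helicase, held 299 RPKM in the oocyte, 427 in 1-cell, 191 in 4-cell, 109 in 16-cell, 30.5 in 64-cell, 19.3 in 128-cell, 19.2 in 256-cell, 22.3 in 1000-cell and 31.2 in sphere, and was 22.2-fold lower at 128-cell (21.0 to 23.4). ORC1, which marks replication origins, was the shallowest, with 363 RPKM in 1-cell, 251 in 4-cell, 157 in 16-cell, 96.0 in 64-cell, 81.0 in 128-cell and 54.1 in sphere (4.48-fold, 4.41 to 4.55). MCM10, which helps to start the helicase, held 125 RPKM in 1-cell, 62.4 in 4-cell, 88.4 in 16-cell and 15.5 in 128-cell, and POLA1, of the polymerase that makes primers, 84.9 in 1-cell, 46.5 in 4-cell, 29.3 in 16-cell and 15.1 in 128-cell. Both were within 1.5-fold of their 128-cell level in the 3 later libraries. Of 8 abundant genes of nucleotide supply, the members were DCK and DTYMK, the thymidylate kinase, which held 283 RPKM in 1-cell, 113 in 4-cell, 54.4 in 16-cell and 16.3 in 128-cell and was 17.4-fold lower there (16.4 to 18.4). SLC29A2, a carrier of nucleosides through membranes, held 184 RPKM in 1-cell, 79.0 in 4-cell, 19.1 in 16-cell, 8.41 in 128-cell and 3.45 in sphere; with the amino acid carrier gene SLC38A6 (13.5-fold lower at 128-cell, 12.9 to 14.2) it was 1 of 2 members among 15 abundant solute carriers.

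Of 9 abundant DNA repair genes, 3 were members. FANCD2, the protein that is ubiquitinated in the Fanconi pathway of crosslink repair, held 51.4 RPKM in the oocyte, 52.7 in 1-cell, 34.6 in 4-cell, 17.5 in 16-cell, 3.87 in 64-cell, 2.27 in 128-cell, 1.28 in 256-cell, 1.47 in 1000-cell and 1.62 in sphere. UBE2T, the E2 enzyme of that step and a member under the ubiquitin list, held 190.5 RPKM in the oocyte, 208 in 1-cell, 95.7 in 4-cell, 52.2 in 16-cell, 13.3 in 64-cell, 8.21 in 128-cell and 11.1 in sphere. Enzyme and substrate were 25.4-fold (23.4 to 27.6) and 23.2-fold (22.0 to 24.6) lower at 128-cell than at 1-cell, the libraries of the rule. At 256-cell against the oocyte they differed, with UBE2T 18.6-fold lower (17.0 to 20.3) and FANCD2 40.1-fold lower (36.7 to 44.0). XRCC3, of homologous recombination, was 4.71-fold lower (4.50 to 4.94). Outside the lists, and named after their values were seen, 2 end-joining genes were members: nhej1, with 40.5 RPKM in 128-cell and 194 in 1-cell, and paxx, with 67.0 RPKM in 128-cell and 364 in 1-cell. Other end-joining genes took another course. The gene xrcc4 kept 85.9% of its 1-cell level at 128-cell. XRCC6, LIG4 and PRKDC were under 1 RPKM in 1-cell and higher at 128-cell, at 4.05, 6.39 and 4.45 RPKM.

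The ubiquitin list held 4 members among 22 abundant genes: RNF7, UBE2T, zufsp and UBE2S. RNF7, a RING subunit of cullin ubiquitin ligases, held 266 RPKM in the oocyte, 309.8 in 1-cell, 83.6 in 4-cell, 45.2 in 16-cell, 12.4 in 64-cell, 9.27 in 128-cell, 7.21 in 256-cell, 9.38 in 1000-cell and 9.11 in sphere. None of 8 abundant proteasome genes was a member. CSE1L, which returns importin alpha to the cytoplasm, held 192 RPKM in the oocyte, 193 in 1-cell, 52.4 in 4-cell, 36.3 in 16-cell, 4.40 in 64-cell, 4.97 in 128-cell, 5.83 in 256-cell, 7.33 in 1000-cell and 6.53 in sphere. Its cargo, the importin alpha gene KPNA2, named after its values were seen, was a member as well, with 444 RPKM in 1-cell, 235 in 4-cell, 315 in 16-cell, 81.3 in 128-cell and 44.7 in sphere.

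The remaining lists covered RNA handling, chromatin, apoptosis and oxidative metabolism. PAN3, of a deadenylase, was the 1 member of 10 abundant mRNA decay genes, with 122 RPKM in 1-cell, 109 in 4-cell, 44.8 in 16-cell, 49.5 in 64-cell, 28.5 in 128-cell and 16.2 in sphere (4.28-fold lower at 128-cell, 4.19 to 4.37). The piRNA pathway gene tdrkh was the 1 member of 12 abundant germ plasm and oocyte RNA-binding genes, 3 more having been left out by name, and was 7.38-fold lower (7.17 to 7.60). TRDMT1 was the 1 member of 8 abundant chromatin modifiers, the list under which it had been placed, with 1 more left out by name, and the caspase inhibitor xiap (4.50-fold, 4.32 to 4.68) the 1 member of 4 abundant apoptosis genes. Of 21 abundant nuclear genes of oxidative phosphorylation, 3 were members. These were ATP5PO and ATP5MG, of the ATP synthase, at 6.40-fold (6.17 to 6.65) and 5.75-fold (5.37 to 6.15) lower, and UQCRQ, at 5.10-fold lower (4.71 to 5.54). None of 67 abundant cytosolic ribosomal protein genes was a member, nor any of 7 histone and chaperone genes, 8 maternal axis and genome activation genes, 4 zinc finger genes or 2 egg coat genes. The lowest shares kept by ribosomal protein genes at 128-cell were those of RPLP1 (33.5%), RPS24 (36.4%) and RPLP0 (36.4%). The shares of members in these lists, beside 10.7% for abundant genes in general, are descriptions and were not tested.

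**Figure D3:**
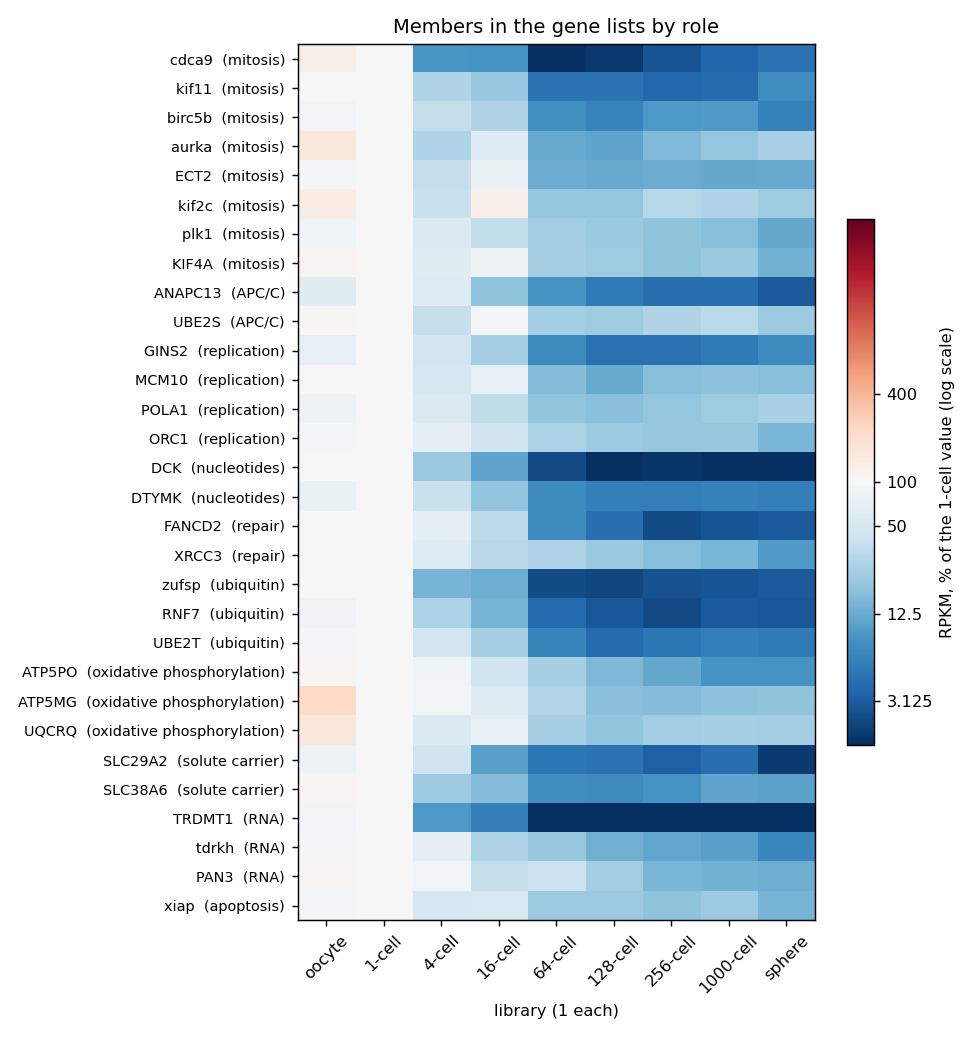
RPKM in each library from oocyte to sphere as a percentage of the 1-cell value (colour, log scale, white at 100%, darkest blue for shares at or under the low end of the scale) for 30 members that belong to a gene list, grouped by role, 1 library per column. The blue deepens between 4-cell and 64-cell in every row, DCK, TRDMT1 and cdca9 reach the darkest shades, and kif2c is above its 1-cell level at 16-cell (123%).

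The same measure was then taken between libraries that the rule did not use. In the 256-cell library 147 of 176 members (83.5%) were at least 4-fold lower than in the oocyte, against 4.77% of the 13184 genes measured. Of the other 1475 abundant genes 54 (3.66%) were. The members' median difference was -2.89 on the log2(RPKM + 1) scale, with 0.81 for all genes measured and -0.68 for the other abundant genes. By gene, si:ch211-241j12.3 was 333-fold lower (307 to 361), TRDMT1 103-fold (83.0 to 129), zgc:153345 91.9-fold (85.9 to 98.6), FANCD2 40.1-fold (36.7 to 44.0), GINS2 15.5-fold (14.6 to 16.6), org 11.6-fold (11.3 to 11.8) and plk1 4.44-fold (4.40 to 4.49). The 2 members higher at 256-cell by this measure (background 21.2% higher) were the 2 listed at 0 in the oocyte, for which no fold is given. This pair shares no library with the choice of members, though each side is still 1 library.

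**Figure D4:**
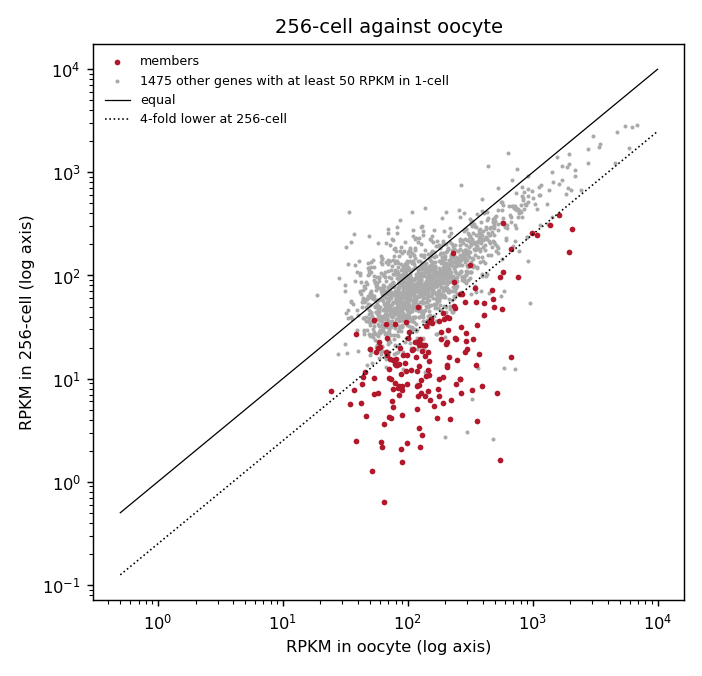
RPKM in the 256-cell library (vertical, log axis) against RPKM in the oocyte library (horizontal, log axis), 1 point per gene, for members (red) and the 1475 other genes with at least 50 RPKM in 1-cell (grey); the 2 members listed at 0 in the oocyte cannot be drawn on a log axis. Most members lie under the dotted line of a 4-fold lower 256-cell value, while 3.66% of the other abundant genes were at least 4-fold lower.

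Splitting the course showed how much of it lay in the first divisions. In the 4-cell library 19 members were at least 4-fold lower than in the oocyte (background 3.13%, other abundant genes 0.542%), and the members' median was -0.91, with 0.13 for all genes. At or under 50% of the oocyte level stood 79 members (44.9%), against 15.8% of all expressed genes and 4.68% of the other abundant genes. From 4-cell to 1000-cell, 94 members were at least 4-fold lower (background 1.55%, other abundant genes 4.14%), with a median of -2.09 and 0.81 for all genes. The 1000-cell library was at least 4-fold under the 16-cell library for 34 members (background 0.501%, other abundant genes 0.814%; median -1.38), a count that was 17 with a pseudocount of 5. At that pseudocount the share over all genes was not taken. Between neighbouring libraries, 8 members were at least 4-fold lower at 16-cell than at 4-cell and 2 higher, with 0.587% of all genes lower and 10.7% higher, and 3.19% of the other abundant genes lower. At 64-cell 21 were lower than at 16-cell, with 0.906% of all genes and 0.203% of the other abundant genes lower. These comparisons share the oocyte, 4-cell, 16-cell or 1000-cell library with one another and are not independent. Under median ratio scaling the count at 1000-cell against 4-cell was 154. That scaling moves every 1000-cell value by -1.07 on the log2 scale against 4-cell. The share over all genes was not taken at that scaling, so nothing is read from the larger count.

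A straight line of log2(RPKM + 1) on log2 cell number was fitted with limma over 5 embryo libraries outside the rule (4-, 16-, 64-, 256- and 1000-cell). Slopes were below 0 for 172 of the 176 members and for 26.7% of all 12589 genes tested. The members' median slope was -0.28 per doubling of cell number (range -0.76 to 0.18), with 0.08 for all genes and -0.07 for the other abundant genes. No gene of the whole table passed an adjusted p under 0.05 in this fit (background 0%), the smallest being 0.0676, while 755 genes (6%) had a falling slope and 3149 (25%) a rising slope at an unadjusted p under 0.05. Of the 755, 146 were members, and none of the 3149 was. Without the 16-cell library, 155 of the 175 members tested fell and 1 rose at an adjusted limma p under 0.05. Against that stand 12.9% of 12351 genes falling and 54.2% rising, and 899 of the other 1475 abundant genes falling (60.9%), so a fall over these libraries was also common among the other abundant transcripts of the 1-cell embryo. With the 1-cell and 128-cell libraries of the rule added, 169 members fell at an adjusted p under 0.05 (background 9.16% falling and 52.7% rising), a count from which nothing is read. Without the 16-cell library the median slope was -0.27 for members, 0.10 for all genes and -0.10 for the other abundant genes.

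In the fit without the 16-cell library each list from which members came and that is given here held genes that fell and genes that rose, beside 12.9% falling and 54.2% rising over all genes. Of 53 spindle, kinetochore and checkpoint genes tested 12 fell and 23 rose, of 42 replication genes 14 fell and 21 rose, and of 29 cyclin and M-phase genes 9 fell and 14 rose. Nucleotide supply had 7 falling and 11 rising of 22, DNA repair 9 falling and 30 rising of 55, mRNA decay 9 falling and 23 rising of 44, and the ubiquitin list 12 falling and 144 rising of 238. Nuclear oxidative phosphorylation had 19 falling and 36 rising of 90. Ribosomal protein genes, which held no member, fell in 65 of 73 and rose in 2. With the 16-cell library in the fit, none of these genes passed.

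Among members with a symbol of their own, the steepest slopes over the 5 libraries belonged to zgc:153345 (-0.76), the stress-response sestrin gene sesn2 (-0.58), hdlbpb, a vigilin RNA-binding protein (-0.55), FANCD2 (-0.54), PEF1 (-0.53), org (-0.51) and tm2d1 (-0.51). Next came si:ch211-241j12.3 (-0.49), zgc:114123 (-0.49) and TRIP13 (-0.48). All 10 fell at an adjusted limma p under 0.05 without the 16-cell library, among them org (adjusted p = 8.74e-06), sesn2 (1.15e-05) and FANCD2 (2.66e-05). For each of these 3 genes the limma adjusted p over the alternatives outside the rule reached 0.41. The sesn2 values were 162 RPKM in the oocyte, 166 in 1-cell, 161 in 4-cell, 28.0 in 16-cell, 30.2 in 64-cell, 13.9 in 128-cell, 5.48 in 256-cell, 5.18 in 1000-cell and 4.94 in sphere. For hdlbpb they were 62.3 RPKM in the oocyte, 56.3 in 1-cell, 47.1 in 4-cell, 16.9 in 16-cell, 17.6 in 64-cell, 6.89 in 128-cell, 2.16 in 256-cell, 1.64 in 1000-cell and 1.58 in sphere. Both started late, at their 1-cell level or near it at 4-cell. Each was slightly higher at 64-cell than at 16-cell, and then lower at 128-cell and again at 256-cell.

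Slopes above 0 were found for IDH3A (0.18), si:dkeyp-79f4.1 (0.09), rpz2 (0.04) and tma7 (0.04), each of which stood lower at 4-cell than at 1-cell. Under median ratio scaling the last 3 turned to -0.01, -0.06 and -0.06. With the 1-cell and 128-cell libraries added all 4 turned negative. The choice of members favours a falling slope in that fit, so nothing is read from it. In the limma fit without the 16-cell library IDH3A rose by 0.27 per doubling, with a Benjamini-Hochberg adjusted p of 0.000675. Over the other alternatives outside the rule that adjusted p reached 0.916.

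**Figure D5:**
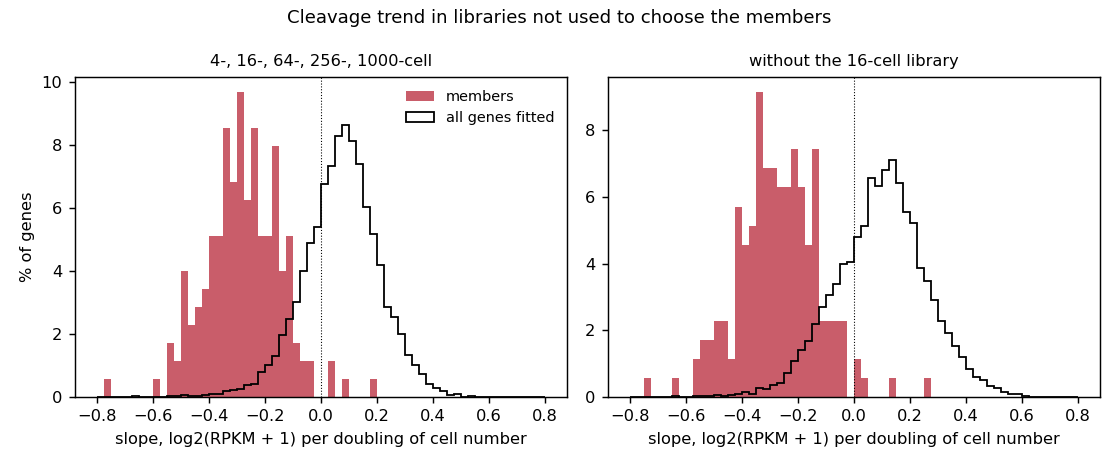
Percentage of genes (vertical) by slope of log2(RPKM + 1) per doubling of cell number (horizontal) for members (red bars) and all genes fitted (black outline), over 5 cleavage libraries outside the rule (left) and without the 16-cell library (right); slopes of all genes beyond 0.8 in size are put in the end bins. The members centre on -0.28 and all genes on 0.08 at left, and on -0.27 and 0.10 at right.

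Between the 1000-cell and sphere stages, over which the embryonic markers appeared, most members stayed low. The sphere library stood under the 1000-cell library for 122 members (69.3%), against 52.6% of all expressed genes and 60.2% of the other abundant genes. Of 174 members measured, 1 was at least 4-fold lower (background 0.415%), namely zgc:56231, with 47.0 RPKM in sphere and 223 RPKM in 1000-cell (4.74-fold, 4.64 to 4.85). At or under 50% of 1000-cell stood 21 members (11.9%), against 7.84% of all expressed genes and 8.34% of the other abundant genes. Sphere was above 1000-cell for 54 members (30.7%), against 47.4% of all expressed genes and 39.8% of the other abundant genes. It was at least 1.5 times as high for 7 members (3.98%), against 14.9% of all expressed genes and 1.9% of the other abundant genes. Against the oocyte, 159 members were at least 4-fold lower in sphere and 2 higher, with a background of 5.95% lower and 25.1% higher, and 16.7% lower among the other abundant genes. Those 2 are again the genes listed at 0 in the oocyte.

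Among members with a symbol of their own, the largest upward differences in sphere, ranked on log2(RPKM + 1) and not on the ratios given here, were those of kif11 at 1.86 times its 1000-cell level (1.79 to 1.94), WSB1 at 1.92 times (1.76 to 2.09) and si:ch211-241j12.3 at 1.69 times (1.56 to 1.82). Next were the Polycomb-associated gene asxl1 at 1.47 times (1.44 to 1.50), the interferon regulatory factor gene IRF5 at 1.51 times (1.41 to 1.62) and ripor3 at 1.43 times (1.37 to 1.48). They were followed by the LIM homeodomain gene lmx1a at 1.46 times (1.31 to 1.62), GINS2 at 1.40 times (1.31 to 1.50), tmprss4b at 1.42 times (1.33 to 1.53) and the kinase gene akt2 at 1.35 times (1.30 to 1.40). Their sphere levels were nonetheless low shares of the 1-cell level, between 1.26% for si:ch211-241j12.3 and 36.7% for asxl1. The asxl1 values were 185 RPKM in the oocyte, 139 in 1-cell, 94.9 in 4-cell, 51.3 in 16-cell, 37.4 in 64-cell, 32.3 in 128-cell, 24.4 in 256-cell, 34.7 in 1000-cell and 51.1 in sphere.

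Between the 1-cell and oocyte libraries the members differed little, with a median difference of 0.06 on the log2(RPKM + 1) scale, 0 members at least 4-fold lower (background 3.4%) and 2 higher (background 1.06%). The largest differences among named members with oocyte reads were about 2-fold. The actomyosin light chain gene myl6 held 131 RPKM in 1-cell and 55.5 in the oocyte (2.35-fold, 2.29 to 2.42), si:dkey-9c18.3 held 120.2 in 1-cell and 49.8 in the oocyte (2.41-fold, 2.27 to 2.57), and zgc:194246 54.3 in 1-cell and 24.2 in the oocyte (2.24-fold). In the other direction, the nuclear envelope gene sun1a held 88.4 RPKM in 1-cell and 203 in the oocyte, and ATP5MG 146 in 1-cell and 333 in the oocyte. Under median ratio scaling, which moves every 1-cell value by 0.78 against the oocyte, 5 members were at least 4-fold higher in 1-cell, with a median of 0.84. The share over all genes was not taken at that scaling.

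In the sperm library, where testis markers such as SYCP3 and insl3 were also high (4 genes summing to 1334 RPKM), the members had a median of 18.5 RPKM. Compared with the oocyte, 116 members were at least 4-fold lower in sperm and 2 higher (background 9.08% lower and 31.5% higher), and 48.7% of the other abundant genes were lower by as much. Among the 2 higher was ENSDARG00000082753, which has no symbol, with 1964 RPKM in sperm and 229 RPKM in the oocyte. Its sperm level was the highest of any member. In sperm 10 members (5.68%) were under 1 RPKM, against 16.3% of all expressed genes and 2.31% of the other abundant genes. There 45 members (25.6%) were above 50 RPKM, against 10.2% of all and 34.9% of the others. Above their oocyte level stood 17 members (9.66%), against 65.1% of all and 15.5% of the others. Among members with a symbol of their own, ranked on log2(RPKM + 1), the highest in sperm relative to the oocyte were zgc:194246 (84.2 RPKM in sperm, 24.2 in oocyte), mycbp, a partner of MYC (467 in sperm, 179 in oocyte), the vesicle tethering gene TRAPPC1 (153 in sperm, 60.6 in oocyte) and BBIP1, of the ciliary BBSome (235 in sperm, 128 in oocyte). They were followed by ifi27.4, the phosphatase gene PPP1CB, TRIP13, UQCRQ, ATP5MG and ndrg3a, at between 1.71 and 1.20 times the oocyte level. The lowest on the same scale were tmprss4b (0.262 RPKM in sperm, 325 in oocyte), birc5b (0.334 in sperm, 405 in oocyte), zgc:56231 (1.15 in sperm, 984 in oocyte), ctss2.1 (7.49 in sperm, 2055 in oocyte) and thy1 (4.38 in sperm, 1075 in oocyte). These 5 were thus abundant in the egg and at or near 0 to a few RPKM in sperm.

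Of gene structure, only length and neighbouring position were compared. Their median length, recovered from the values, was 1922 bases (middle 50% from 1054 to 2798), with 1896 bases (1215 to 2763) for the other abundant genes, and their median 1-cell level of 131 RPKM was close to the 124 RPKM of the others. Of 129 members matched in the RefSeq order of assembly GRCz12tu, 2 pairs were direct neighbours, ATG4B with DTYMK and SAV1 with NIN, and among 1174 abundant genes matched there were 81 such pairs. The strand setting of the counting is not given in the sources used here, so reads of overlapping neighbours could not be told apart. A symbol was found for 150 members, 13 of which share it with another gene and are named with their ID, and 26 had none. For every member the counting interval of the 128-cell difference was narrow, its upper bound being at most 1.48 times the lower.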

How the data were processed

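RNA from 10 zebrafish stages, 1 library each, was prepared with TRIzol and the TruSeq RNA v2 kit and read on a HiSeq2000, per the labels' protocols. The authors deposited 1 table of RPKM for 32574 genes. Per the submitters' processing notes, TopHat2 2.0.9 and genome build Zv9 were used; the counting tool, annotation release, strand setting and treatment of multiply mapping reads were not given in the sources used here. Symbols came from a table of gene IDs (20901 matched).

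Whole reads and gene lengths were worked back from the ratios of RPKM values between libraries, within 0.02 reads, for 26493 of the 26495 genes above 0 in 2 libraries or more. On simulated data of 26194 genes, 95.1% had every read exact (100.0% of the 1651 genes at 50 RPKM in 1-cell). At these depths 3 reads in 1 kilobase amount to between 0.0263 RPKM (4-cell) and 0.0794 RPKM (1-cell).

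Differences between 2 libraries were taken on log2(RPKM + 1) for genes with at least 1 RPKM in either, and called at 4-fold; no p was computed. The trend over cell number used limma 3.58.1 in R 4.3.3 (lmFit, eBayes with trend, 3 residual degrees of freedom). Genes at 1 RPKM or more in at least 2 fitted libraries were tested, with Benjamini-Hochberg adjustment over all of them. The error of this trend holds departures from a straight line as well as differences between libraries. The members and the 21 gene lists were chosen with earlier results of these data known. Genes were named by rank: highest in 1-cell, lowest ratio, nearest the threshold, steepest or rising slope, most extreme at 4-cell, 16-cell, sphere, sperm or oocyte, and list membership; 1 member of the lists is not reported here. Alternatives were other pseudocounts, filters, thresholds and stages, median ratio scaling and leaving out each library.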

Additional observations from a re-analysis of the deposited data

How the results depend on the processing

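Of 394 alternative values for 55 results, 342 were classed as the same. For counts, shares and medians this meant within 1.5-fold of the main value, with no change of sign. For the slopes of single genes it meant the same sign and the same side of a limma adjusted p of 0.05. The tally is weak evidence of robustness, because part of it follows from these definitions. No gene passed in the main trend fit, so a count of 0 was the same wherever none passed. A slope of any size was the same if it kept its sign and did not pass. For si:ch211-241j12.3 the slope was -0.49, and -0.23 without 4-cell, and this was classed as the same. In the trend, leaving out each library in turn gave 0 to 155 members falling, 0 to 1 rising, and over all genes 0 to 1595 falling and 0 to 6699 rising; calls were made when the 16-cell library was left out. With all 7 libraries from 1-cell to 1000-cell, including those of the rule, 169 members fell, and over all genes 1165 fell and 6699 rose. The slope turned to -0.11 for IDH3A, -0.10 for si:dkeyp-79f4.1, -0.12 for rpz2 and -0.11 for tma7 with all 7 libraries. The choice of members favours a falling slope in that fit. Under median ratio scaling it turned to -0.01 for si:dkeyp-79f4.1, -0.06 for rpz2 and -0.06 for tma7. For rpz2 it lay between -0.05 and 0.24 as each library was left out in turn, at -0.05 without 16-cell and -0.0017 without 1000-cell. The number of members was 114 at 100 RPKM, 567 at 50% and 84 at 12.5% of 1-cell, 61 with 4-cell in place of 1-cell (56 shared) and 1133 under median ratio scaling. With oocyte in place of 1-cell it was 237, of which 140 were shared (59.1% of the 237, 79.5% of the members). A pseudocount of 5 gave 0 members higher at 256-cell than in the oocyte, 0 higher in sphere than in the oocyte and 17 lower at 1000-cell than at 16-cell. A pseudocount of 0.1 gave 1 higher at 1000-cell than at 4-cell, and a filter of 5 RPKM left 1 higher in sphere than in the oocyte. Median ratio scaling gave 154 lower at 1000-cell than at 4-cell, 1 higher in sperm than in the oocyte, and for 1-cell against oocyte 5 higher and a median of 0.84. For these comparisons the shares over all genes were not taken at those pseudocounts, that filter or that scaling. The 16-cell share of the RPKM total was 2.99% without ENSDARG00000080337, an alternative chosen after seeing the data. The cause of these changes was not tested. No paired analysis was possible because each stage has a single library, numbered 1. At these depths counting error was small for the members. With 1 library per stage, the spread between libraries of one stage is not measured.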

Other observations

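Partners of members in the same complex, chosen after the values were seen, often took another course. GINS2, with 19.3 RPKM in 128-cell and 427 RPKM in 1-cell, is 1 of 4 subunits of the GINS complex. GINS1 held 1.96 RPKM in 1-cell, 5.43 in 4-cell, 16.7 in 16-cell, 15.7 in 64-cell, 24.7 in 128-cell and 41.7 in 1000-cell. GINS3 held 7.59 RPKM in 1-cell, 81.5 in 16-cell, 33.2 in 64-cell and 41.8 in 128-cell. Over the embryo libraries GINS4 stayed between 6.75 RPKM in 1-cell and 11.3 RPKM in 16-cell, with 16.8 RPKM in the oocyte. In the 1-cell library GINS2 was thus far above its 3 partners, and at 128-cell it lay among them. Of the origin recognition complex, ORC1 kept 22.3% of its 1-cell level at 128-cell and ORC6 92.6%, while ORC3 held 53.8 RPKM in 128-cell and 0.844 RPKM in 1-cell. POLA1 kept 17.8%, and its primase partner PRIM2 kept 29.9%, whereas PRIM1 held 34.0 RPKM in 128-cell and 11.7 RPKM in 1-cell.

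Other pairs differed as well. RNF7 kept 2.99% of its 1-cell level at 128-cell and RBX1, the other RING subunit of cullin ligases, 58.0%. The elongin C gene eloca kept 3.97% and the gene named ELOC 52.9%, though how reads common to the pair were assigned is not given in the sources used here. IDH3A kept 11.3% and IDH3B, of the same enzyme, 81.3%. Among importin alpha genes, KPNA2 kept 18.3% and the oocyte gene kpna7 35.2%, while KPNA4 held 15.4 RPKM in 1-cell, 88.7 in 4-cell, 141 in 16-cell, 196 in 64-cell and 206 in 128-cell. The sestrin gene sesn2 held 13.9 RPKM in 128-cell and 166 in 1-cell, and SESN1 11.7 RPKM in 128-cell and 0.757 in 1-cell. In the Fanconi pathway FANCL, the ligase that works with UBE2T, kept 12.8%, and FANCI, the partner of FANCD2, held 35.5 RPKM in 128-cell and 23.7 RPKM in 1-cell. No test was run on these pairs, each value comes from 1 library, and the median gene was higher at 128-cell than at 1-cell by 1.13 on the log2(RPKM + 1) scale.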
